A study of Rattus norvegicus with 19 samples.

Results

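Cultures of rat ventral spinal cord that received medium conditioned by astrocytes with mutant human SOD1 (mutSOD1-ACM, 5 libraries) were compared with untreated cultures (control, 5 libraries), across all genes with an FPKM of at least 1 in no fewer than 4 of the series' 19 libraries. FPKM is the number of fragments scaled to transcript length and library size. The rule kept 11887 of the 15597 genes in the table and used no outcome of the comparison. All cultures, the controls included, came from wild-type Sprague-Dawley embryos of day 14 and were grown in medium with horse serum and an extract of chick leg. The labels give the culture age as 7 days in vitro in one place and 4 in another. The mutant medium came from primary spinal astrocytes of newborn mice transgenic for SOD1 G93A, conditioned for 7 days in neuronal growth medium, with glucose added before filtering, and was applied for 90 min. The other groups of the series received medium of astrocytes with wild-type human SOD1 (wtSOD1-ACM, 4 libraries) or long-chain polyphosphate at 100 μM (polyP, 5 libraries), also for 90 min. No group in these data received medium from astrocytes without a human SOD1 transgene, so against the untreated cultures an effect of conditioned medium as such and an effect of the mutation cannot be told apart. The labels speak of independent cultures, and p-values measure the spread between these libraries.

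SOD1 is a superoxide dismutase, and G93A is a mutation of it that causes familial amyotrophic lateral sclerosis, a disease in which motor neurons die. Astrocytes are the glial cells that surround neurons, and they secrete growth factors, cytokines and other molecules into their medium. Transforming growth factor beta (TGF-beta) is such a secreted factor: its receptors phosphorylate SMAD proteins, which enter the nucleus and, within the first hours, induce feedback inhibitors of the same pathway. The integrated stress response is a second pathway met below, in which the transcription factor ATF4 induces genes of amino acid supply when amino acids are short or proteins misfold. The series title asks about transcripts induced in common by polyP and the mutant medium.

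The 10 libraries held 11398 to 11723 genes at an FPKM of 1 or more, and their depth relative to the median library lay between 0.763 and 1.26 in control and between 0.857 and 1.2 with mutSOD1-ACM. Absolute depth is unknown. Clustering of all genes put the libraries into 2 sets that the labels do not mention. Set 1 held control and mutSOD1-ACM replicates 1 to 3 and set 2 replicates 4 and 5 of both. In set 1 the myelin gene Mbp stood at 169 to 372 FPKM and the microglia gene C1qa at 17.8 to 87.9 FPKM, and in set 2 they stood at 6.79 to 9.62 and 4.94 to 5.97 FPKM. Set 1 itself held a class with control replicate 1 and mutSOD1-ACM replicates 1 and 2 and a class with control replicates 2 and 3 and mutSOD1-ACM replicate 3. These sets and classes were found from the data and are not groups of the study, and values within them are given beside the results. Summed FPKM was 464188 ± 13827 in control and 476788 ± 7689 with mutSOD1-ACM (SD, n = 5 each), a ratio of 1.03 (two-sided exact permutation test, p = 0.119, where 5 against 5 cannot go below 0.0079). Without control replicate 5 the ratio was 1.036 (exact permutation p = 0.0476).

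With the mutant medium 2 of 11887 genes, 0.0168%, passed the limma test at an adjusted p under 0.05. Both rose, and both encode feedback inhibitors of TGF-beta signalling: Smad7, an inhibitory SMAD protein that blocks the receptor, and Pmepa1, a membrane protein that holds back receptor-activated SMADs. Chac1, an enzyme that degrades glutathione and a target of ATF4, came next to the threshold (adjusted p = 0.0905), with a lower level in all 5 treated libraries than in any control. At an unadjusted p under 0.05 stood 426 genes (3.58%), 301 higher and 125 lower. Group was the only term of this fit, so differences between the 2 culture sets stayed in its spread. With a term for the sets 1059 genes stood at an unadjusted p under 0.05, and the called genes were the same 2. The 5 treated and 5 control values did not overlap in 42 genes (0.353%), 28 higher and 14 lower with the medium.

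Most other genes had narrow intervals around 0. The median difference of all genes, mutSOD1-ACM minus control, was 0.0047 on the log2(FPKM + 1) scale. The 95% interval of a gene's difference reached a median of 0.209 to either side of its estimate, with 5% of genes below 0.111 and 5% above 0.611. For 9929 genes (83.5%) the interval lay wholly within 0.5 on either side of 0, and for 11512 (96.8%) within 1. These intervals are not adjusted for the number of genes. In all 83 genes had an estimated difference over 0.5 in size and 5 over 1. Of these 5 genes, 4 were short RNA precursors at a few FPKM.

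**Figure D1:**
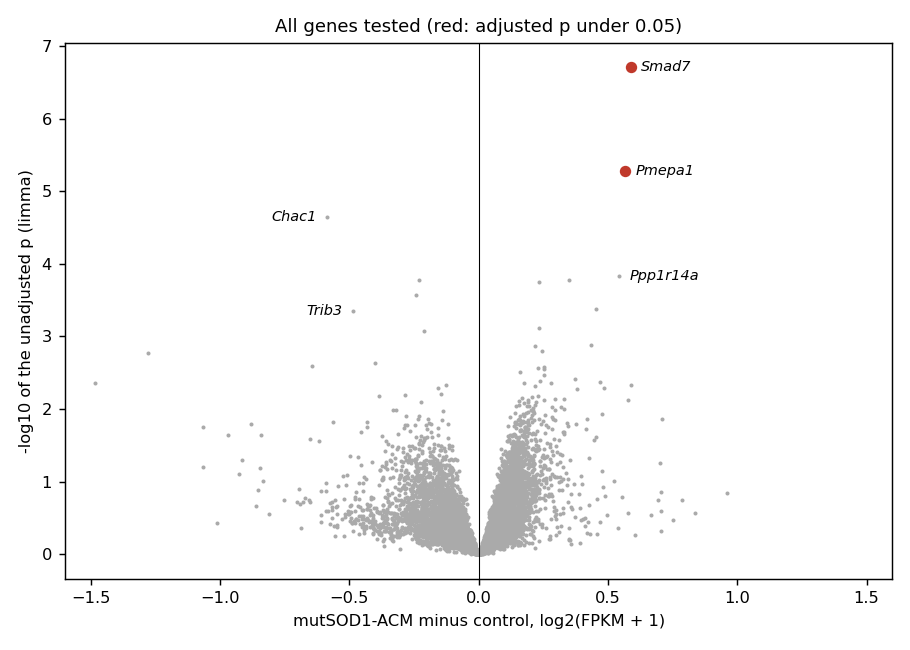
Difference between mutSOD1-ACM and control on the log2(FPKM + 1) scale (x axis) against -log10 of the unadjusted limma p (y axis) for 11887 genes, 1 point each. The 2 red points, Smad7 and Pmepa1, are the genes with an adjusted p under 0.05, and Chac1 is the nearest gene below that threshold.

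Smad7 (gene identifier 81516) stood at 5.96, 7.09, 7.24, 6.84 and 6.21 FPKM in control replicates 1 to 5 and at 10.0, 10.5, 9.66, 10.8 and 11.7 FPKM with mutSOD1-ACM. Every treated library lay above every control. The means were 6.67 ± 0.558 and 10.5 ± 0.783 FPKM (SD, n = 5 each), a 1.58-fold difference, and on the log2 scale the rise was 0.59 (95% interval 0.437 to 0.739, limma adjusted p = 0.00232). It was 0.51 within set 1 and 0.70 within set 2. The call held when any 1 of the 10 libraries was left out, with an adjusted p of at most 0.014. It ended when only the libraries of these 2 groups were fitted (limma adjusted p = 0.112) and in set 1 alone (adjusted p = 0.241).

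Pmepa1 (311676) stood at 71.3, 71.3, 73.1, 55.2 and 60.6 FPKM in control and at 98.9, 107, 96.7, 94.2 and 94.2 FPKM with mutSOD1-ACM. Here too the groups did not overlap. The means were 66.3 ± 7.96 and 98.2 ± 5.27 FPKM, a 1.48-fold difference, and the rise was 0.57 (95% interval 0.381 to 0.753, limma adjusted p = 0.0316), with 0.48 within set 1 and 0.70 within set 2. This call was close to the threshold. It ended without control replicate 4 or 5 or without any 1 of the 5 mutSOD1-ACM replicates, where the limma adjusted p lay between 0.0712 and 0.164, and it ended under each of the 3 other scalings of the libraries (0.0843 to 0.137), without a filter on low values (0.0522), with only these 2 groups fitted (0.172) and in set 1 alone (0.192).

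The wild-type medium and polyP give these genes a wider frame. With wtSOD1-ACM Smad7 stood at 12.1 ± 0.985 and Pmepa1 at 114 ± 7.13 FPKM (n = 4), and with polyP at 5.05 ± 0.449 and 51.1 ± 6.56 FPKM (n = 5). Both genes were thus at their highest mean level with the wild-type medium and at their lowest with polyP. Against the wild-type medium neither gene was called: Smad7 was lower by 0.19 (95% interval of the difference -0.346 to -0.0253, limma adjusted p = 0.83) and Pmepa1 by 0.21 (-0.41 to -0.0155, adjusted p = 0.893). Against polyP both were higher, by 0.93 (limma adjusted p = 1.04e-06) and 0.94 (adjusted p = 1.03e-05).

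**Figure D2:**
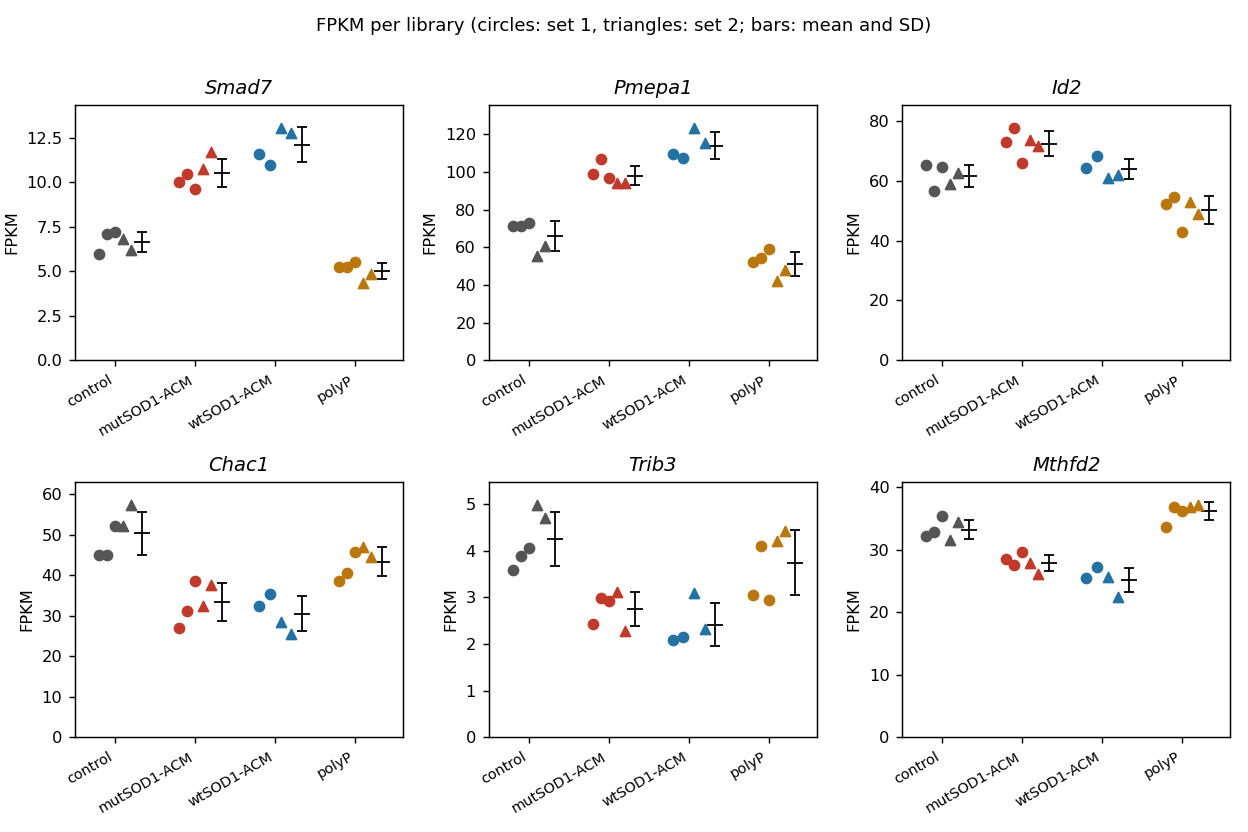
FPKM (y axis, from 0) of 6 genes in each library of the 4 groups (x axis), with circles for set 1, triangles for set 2 and bars for the mean and SD. All 5 mutSOD1-ACM libraries lie above all 5 controls for Smad7, Pmepa1 and Id2 and below them for Chac1, Trib3 and Mthfd2.

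The windows around the start sites of Smad7 and Pmepa1 are shown because these are the only 2 genes called. They run from 250 bases before to 50 bases after the annotated start (RefSeq, build GRCr8, not the build of the deposited values), with Smad7 at chr18:71263258-71263557 on the plus strand and Pmepa1 at chr3:182478600-182478899 on the minus strand, each read in the direction of the gene. Capitals mark GGCGC on either strand, a GC-rich sequence that SMAD proteins can bind.
Smad7: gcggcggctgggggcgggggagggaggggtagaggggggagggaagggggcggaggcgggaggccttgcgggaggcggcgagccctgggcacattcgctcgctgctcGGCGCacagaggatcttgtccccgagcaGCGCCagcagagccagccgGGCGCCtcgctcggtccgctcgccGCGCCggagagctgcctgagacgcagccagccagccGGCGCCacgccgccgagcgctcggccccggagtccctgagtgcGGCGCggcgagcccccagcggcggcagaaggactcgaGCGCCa
Pmepa1: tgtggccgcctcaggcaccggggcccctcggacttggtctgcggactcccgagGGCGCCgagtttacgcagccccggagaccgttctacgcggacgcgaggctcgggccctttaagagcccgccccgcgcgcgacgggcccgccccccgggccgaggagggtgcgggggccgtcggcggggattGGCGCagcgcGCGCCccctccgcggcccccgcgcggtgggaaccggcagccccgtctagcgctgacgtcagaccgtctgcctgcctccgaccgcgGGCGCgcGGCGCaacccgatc
The Smad7 window holds GGCGC 9 times and the Pmepa1 window 6 times, overlapping matches included. At least 1 match is found in 36.2% of 27457 such windows. All motifs were searched on both strands. The SMAD box CAGAC, found in 50% of windows, occurs 0 times in the Smad7 window and 3 times in the Pmepa1 window, and the palindrome GTCTAGAC, found in 0.215%, in neither. The cyclic AMP response element TGACGTCA, found in 1.91% of windows, occurs 1 time for Pmepa1, starting 4 bases before the start site and overlapping a CAGAC match. Matches are letters in a window and say nothing of binding.

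Among 19 tested TGF-beta and BMP targets, Smad7 and Pmepa1 were the 2 called genes. The list is a set of known target genes and modulators, written with earlier results of these data known, so its counts are no test. In total 5 members, the 2 called genes included, had an unadjusted p under 0.05, each higher with the medium, beside 3.58% of all genes. In 4 members the groups did not overlap, again higher with the medium, beside 0.353% of all genes. Besides the 2 called genes these were Id2, an inhibitor of basic helix-loop-helix factors, at 61.7 ± 3.78 and 72.4 ± 4.23 FPKM (0.23, limma adjusted p = 0.966), and Tgif1, a co-repressor of SMAD proteins, at 24.1 ± 0.933 and 28.1 ± 1.75 FPKM (0.21, adjusted p = 0.966). The list median was 0.18, against 0.0047 for all genes, and 14 of the 19 differences were positive. It was 0.22 within set 1 and 0.10 within set 2.

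The other members were spread on both sides of 0 without passing the test. The BMP targets Id1 and Id3 stood at 96.2 ± 17.0 and 151 ± 18.2 FPKM in control and at 116 ± 20.1 and 170 ± 24.8 FPKM with the medium, with overlapping libraries. Smad6, the inhibitory SMAD of the BMP branch, stood at 5.39 ± 0.896 and 6.64 ± 1.24 FPKM (0.25, 95% interval -0.105 to 0.615). Against polyP 9 of the 19 members were higher and 0 lower, beside 582 higher and 1760 lower of all 11887 genes, a split that depended on the scaling. Against wtSOD1-ACM 0 were called (0.471% of all genes). With the wild-type medium the list median relative to control was 0.05 and with polyP -0.34. All members described here except Smad7 and Pmepa1 were picked after looking at their values. Each of them had a higher mean with the medium, and the members with negative differences are given without values.

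Among 26 tested ATF4 targets limma called 0 against control. At an unadjusted p under 0.05, 8 were lower with the mutant medium and 1, Ddit4, higher, beside 125 lower and 301 higher of all 11887 genes. In 5 members (Chac1, Trib3, Mthfd2, Asns and Aldh18a1) all 5 treated libraries lay below all 5 controls, against 14 such genes among all 11887. This list too was written with earlier results of these data known, so its counts are no test. The summed FPKM of the 26 members was 1186 to 1282 in control and 1093 to 1174 with mutSOD1-ACM, so the sums did not overlap. The median difference was -0.14, with 20 members below 0, and it stayed between -0.175 and -0.109 in all 24 alternatives.

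Chac1 (362196) stood at 45.0, 45.0, 52.2, 52.0 and 57.4 FPKM in control and at 27.1, 31.1, 38.4, 32.5 and 37.7 FPKM with mutSOD1-ACM. The means were 50.3 ± 5.29 and 33.3 ± 4.74 FPKM, and the difference of -0.59 (95% interval -0.801 to -0.369) had a limma adjusted p of 0.0905. It was -0.56 within set 1 and -0.63 within set 2. The gene passed in 4 of 24 alternatives, among them the fit with a term for the 3 classes of libraries (-0.53, adjusted p = 0.00634), chosen after the data were seen. Trib3 (246273), a pseudokinase induced by ATF4 that inhibits it, stood at 3.6, 3.90, 4.07, 4.99 and 4.71 FPKM in control and at 2.43, 2.99, 2.92, 3.11 and 2.28 FPKM with the medium. Its difference was -0.49 (95% interval -0.725 to -0.248, limma adjusted p = 0.533).

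Mthfd2, a mitochondrial folate enzyme, stood at 33.2 ± 1.58 and 27.9 ± 1.28 FPKM (-0.24, limma adjusted p = 0.399). Asns, asparagine synthetase, stood at 25.2 ± 0.536 and 23.4 ± 0.881 FPKM (-0.10, adjusted p = 0.966), a small difference between tightly grouped libraries. Sesn2, a leucine-binding inhibitor of mTORC1, stood at 24.7 ± 3.26 and 19.4 ± 2.63 FPKM (-0.33, adjusted p = 0.966) with overlapping groups, and passed only with the class term (adjusted p = 0.0384). The arginine transporter gene Slc7a1 stood at 39.5 ± 6.93 and 29.7 ± 4.74 FPKM (-0.40, adjusted p = 0.966). Atf4 itself stood at 232 ± 22.7 and 217 ± 14.0 FPKM (-0.09, 95% interval -0.25 to 0.068), and Ddit3, the pro-apoptotic factor CHOP, at 26.4 ± 2.49 and 23.9 ± 3.19 FPKM (-0.14, -0.346 to 0.0616). The enzymes of serine synthesis did not share the lower levels: Psat1 stood at 68.0 ± 11.4 and 75.7 ± 15.1 FPKM and Phgdh at 107 ± 10.3 and 109 ± 11.9 FPKM. Members beyond Chac1 and Mthfd2 were picked after looking at their values.

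The wild-type medium gave lower means still for Chac1, Trib3 and Mthfd2, by differences that were not called. Chac1 stood at 30.5 ± 4.32 FPKM with wtSOD1-ACM and 43.3 ± 3.55 FPKM with polyP, Trib3 at 2.42 ± 0.469 and 3.75 ± 0.692 FPKM, and Mthfd2 at 25.1 ± 1.98 and 36.1 ± 1.45 FPKM. The list median relative to control was -0.20 with wtSOD1-ACM and 0.07 with polyP. Between the 2 media 0 of 26 members were called. Against polyP 11 members were lower with mutSOD1-ACM and 1 higher. In that comparison 19.7% of all genes were called, 1760 lower and 582 higher, a split that depended on the scaling. The lower members included Mthfd2 (-0.36, limma adjusted p = 0.000714), Asns (-0.29, adjusted p = 0.000822), Sesn2 (-0.49, adjusted p = 0.00803) and Chac1 (-0.37, adjusted p = 0.0173).

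The start-site windows of Chac1 and Trib3 are shown because these members had the largest differences in the list. They lie at chr3:126795881-126796180 on the plus strand and chr3:161275484-161275783 on the minus strand (RefSeq, GRCr8). Capitals mark TGATGNAA on either strand, the core of the composite element that ATF4 binds with C/EBP factors.
Chac1: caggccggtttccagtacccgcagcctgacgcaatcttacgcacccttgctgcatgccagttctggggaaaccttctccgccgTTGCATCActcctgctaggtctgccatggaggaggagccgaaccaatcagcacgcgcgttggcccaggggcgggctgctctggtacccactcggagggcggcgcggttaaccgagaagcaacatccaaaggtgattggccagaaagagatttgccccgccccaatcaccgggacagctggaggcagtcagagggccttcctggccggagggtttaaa
Trib3: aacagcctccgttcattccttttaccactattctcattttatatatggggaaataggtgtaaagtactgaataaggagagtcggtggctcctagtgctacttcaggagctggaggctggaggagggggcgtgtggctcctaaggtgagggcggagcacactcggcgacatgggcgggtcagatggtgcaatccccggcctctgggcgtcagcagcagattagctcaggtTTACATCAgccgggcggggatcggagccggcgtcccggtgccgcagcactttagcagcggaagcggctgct
Each window holds 1 match, which begins 167 bases before the start site for Chac1 and 21 bases before it for Trib3. Of the 25 list members with a window 6 (24%) hold a match, beside 3.82% of all windows. The windows of Asns and Mthfd2 are not among these 6.

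**Figure D3:**
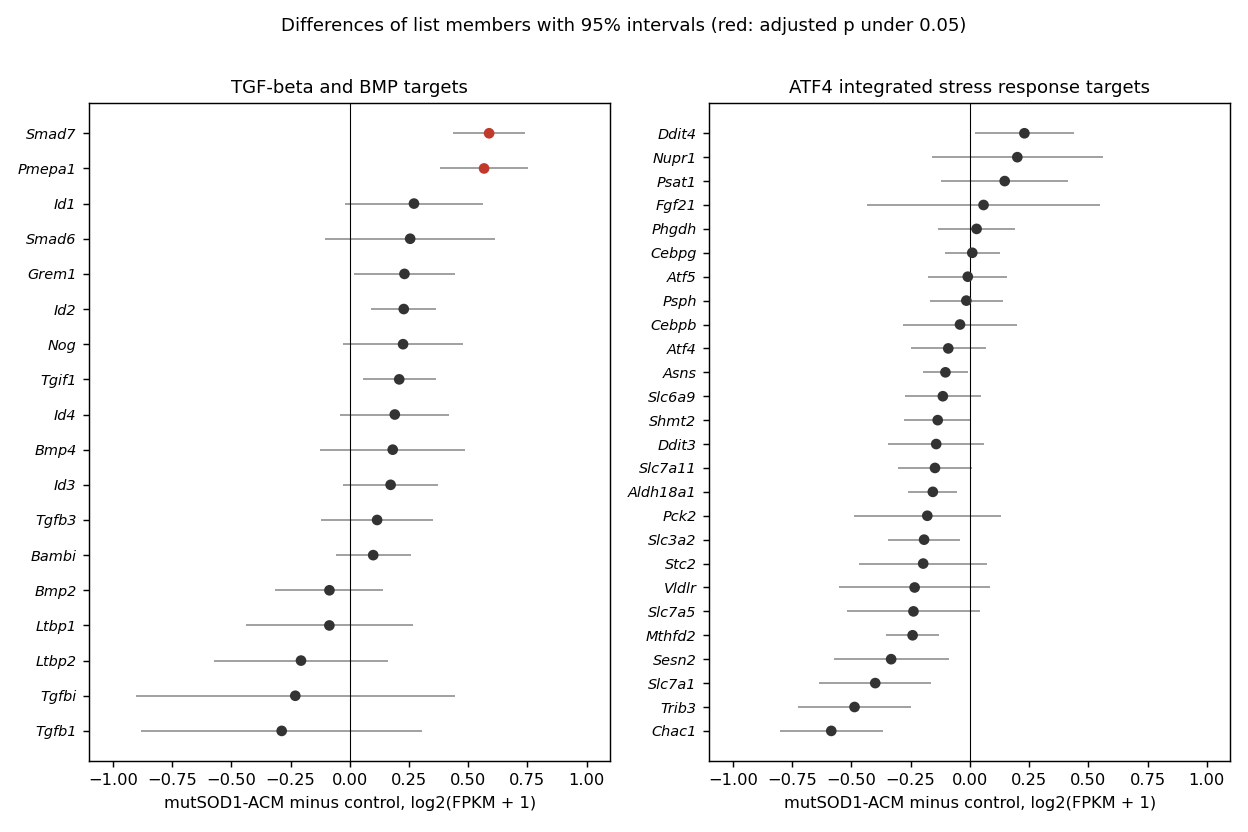
Difference between mutSOD1-ACM and control on the log2(FPKM + 1) scale (x axis) for tested TGF-beta and BMP targets (left, 18 of the 19 genes) and all tested ATF4 targets (right, 26 genes), with 95% limma intervals. Smad7 and Pmepa1, in red, are the only genes with an adjusted p under 0.05, and Chac1 has the lowest value on the right.

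Contractile and cytoskeletal genes did not pass the test. Of 28 tested targets of YAP and SRF, transcription regulators that respond to the actin cytoskeleton, limma called 0, and 19 had a positive difference. At an unadjusted p under 0.05 stood 8, each higher, beside 301 higher and 125 lower of all 11887 genes. Differences ran from -0.38 to 0.71, and Flnc, the actin cross-linker, was at -0.37 (184 ± 40.1 and 144 ± 39.8 FPKM). Acta2, smooth muscle actin, stood at 704, 412, 476, 564 and 742 FPKM in control and at 910, 908, 665, 675 and 797 FPKM with mutSOD1-ACM. The groups overlapped (0.47, limma adjusted p = 0.966), and the difference was 0.66 within set 1 and 0.18 within set 2, a gap between sets that was not tested. Myl9, the regulatory myosin light chain, stood at 127 ± 23.7 and 164 ± 19.2 FPKM (0.37, adjusted p = 0.966; 0.52 and 0.15 within the sets). Tagln, the actin-binding transgelin, stood at 913 ± 160 and 1144 ± 167 FPKM (0.33; 0.49 and 0.10). The list median was 0.10 over all libraries, 0.15 in set 1 and -0.03 in set 2, and with polyP Acta2 stood at 824 ± 108 and Myl9 at 192 ± 22.0 FPKM. Ppp1r14a, an inhibitor of myosin phosphatase outside the list and chosen after its values were seen, stood at 5.53 ± 1.07 and 8.46 ± 1.00 FPKM without overlap (0.54, adjusted p = 0.301).

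Markers of fibroblasts and mural cells, which express contractile genes, summed to 2158 to 2934 FPKM in control and 2509 to 3500 FPKM with the medium. The marker list holds Acta2 and Tagln themselves. Most of the sum, and most of its higher mean with the medium, came from these genes, so the sum largely restates the values above. Of its 11 tested members 0 were called and 3 had an unadjusted p under 0.05, each higher, beside 301 higher and 125 lower of all 11887 genes. Differences ran from -0.68, for Postn, to 0.75. The median was 0.12, with 0.21 within set 1 and 0.005 within set 2. In bulk cultures more cells of a type and more RNA per cell cannot be told apart, and the part of these cells in the contractile values was not tested.

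Immediate early genes are switched on in neurons and glia within minutes of a stimulus. Of 37 tested members limma called 0 after 90 min of mutant medium. At an unadjusted p under 0.05, 3 were higher and 1 lower, beside 301 higher and 125 lower of all 11887 genes. The median difference was -0.01 (0.13 in set 1 and -0.20 in set 2), and 24 of the 37 had an interval wholly within 0.5 on either side of 0, beside 83.5% of all genes. Fos stood at 151, 101, 163, 94.2 and 107 FPKM in control and at 141, 160, 164, 76.7 and 98.8 FPKM with the medium. The 4 libraries of set 2 were among the 5 lowest of the 10 (0.03, 95% interval -0.53 to 0.596). Egr1, a zinc-finger factor, stood at 57.0, 59.7, 69.0, 84.7 and 94.1 FPKM in control and at 63.9, 65.9, 55.8, 49.5 and 68.1 FPKM with the medium (-0.24, -0.534 to 0.0455, limma adjusted p = 0.966). Its difference was 0.00 within set 1 and -0.61 within set 2. The neuron-specific factor Npas4 stood at 26.6 ± 9.85 and 25.2 ± 12.6 FPKM (-0.18, 95% interval -1.22 to 0.865), a range too wide to bound it closely, and the neurotrophin Bdnf at 9.75 ± 1.77 and 9.25 ± 1.09 FPKM (-0.06, -0.302 to 0.181).

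The member with the smallest p was Ier5l, a nuclear protein of the immediate early class. It stood at 28.4, 29.1, 29.1, 29.8 and 35.5 FPKM in control and at 37.2, 41.8, 39.1, 34.3 and 42.1 FPKM with the medium (0.35, limma adjusted p = 0.301), with 1 control value above the lowest treated value. The level was 39.9 ± 3.69 FPKM with wtSOD1-ACM and 21.6 ± 1.31 FPKM with polyP. Gadd45b, a stress and activity gene, stood at 41.1 ± 3.82 and 50.2 ± 5.83 FPKM (0.28, adjusted p = 0.966), and at 70.5 ± 4.99 FPKM with wtSOD1-ACM.

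Many genes separated the mutant medium from polyP. The limma test called 2342 genes (19.7%), 582 higher and 1760 lower with mutSOD1-ACM than with polyP. Same-numbered libraries of these 2 groups deviated together, and with the replicate number as a block 5787 genes were called, 2118 higher and 3669 lower. Same-numbered libraries also fell into the same class of libraries. With a term for the class, added after the data were seen, 5413 genes were called. The share called higher was 24.85% with values as deposited, 48.0% with median-of-ratios scaling, 48.7% with equal summed FPKM and 35.4% after quantile normalization, so the split of directions depended on the scaling. Scaling also moved the count, to 1479 and 1533 with the first pair of these, and 116 genes were called in set 1 alone and 4529 in set 2 alone.

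The 8 largest differences towards higher levels with mutSOD1-ACM than with polyP held secreted signals and immediate early genes. Ptgs2, the inducible cyclooxygenase, stood at 29.8, 31.3, 30.5, 25.1 and 35.3 FPKM with mutSOD1-ACM and at 8.76, 10.8, 12.0, 7.82 and 7.69 FPKM with polyP (1.6, limma adjusted p = 4.47e-07). Its control level was 29.1 ± 3.63 FPKM, and the mutant medium differed from control by 0.06 (95% interval -0.174 to 0.298). Hbegf, an EGF receptor ligand, was higher by 1.41 (adjusted p = 5.64e-06), Egr1 by 1.20, and Plaur, the urokinase receptor, by 1.25. Lif and Clcf1, cytokines of the interleukin-6 family, were higher by 1.38 and 1.23, the neuropeptide gene Gal by 1.29 and the actin cross-linker Flnc by 1.26. Of the 37 immediate early genes 16 were higher and 0 lower, beside 582 higher and 1760 lower of all 11887 genes.

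Relative to untreated cultures, 7 of these 8 genes had a difference of at most 0.38 in size with the mutant medium, and none was called. The other, Gal, stood at 4.37, 3.35, 3.04, 3.73 and 4.69 FPKM in control and at 3.23, 4.36, 5.47, 7.23 and 9.15 FPKM with mutSOD1-ACM (0.45, limma adjusted p = 0.966). Its difference was 0.21 within set 1 and 0.82 within set 2. There Gal passed the test of that set alone (limma adjusted p = 0.0442), which compared 2 controls with 2 treated libraries. The level of Gal was 9.41 ± 1.61 FPKM with wtSOD1-ACM.

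The 8 largest differences the other way were genes at higher levels with polyP. Fabp7, a lipid-binding protein of radial glia, stood at 1147 ± 194 FPKM with mutSOD1-ACM and 1899 ± 207 FPKM with polyP (-0.74, limma adjusted p = 0.00157), and at 983 ± 177 FPKM in control. Hmgb2 and Pclaf, proteins of dividing cells, were lower by 0.64 and 0.66 with mutSOD1-ACM, and Psat1 by 0.60. Pou3f2, a neural transcription factor, stood at 7.89 ± 0.652 and 12.4 ± 1.35 FPKM (-0.59, adjusted p = 0.00025), with 7.81 ± 0.465 FPKM in control. Ddit4l2, a relative of the mTORC1 inhibitor Ddit4, and S100a1, a calcium-binding protein, were lower by 0.88 and 0.65. Olig1, a factor of the oligodendrocyte lineage, stood at 88.3 ± 27.4 and 137 ± 23.9 FPKM (-0.66, adjusted p = 0.0472), a call close to the threshold. It ended under the 3 other scalings (limma adjusted p = 0.0967 to 0.102), without a filter on low values (0.0658), with plain empirical Bayes (0.0504), in set 1 alone (0.0654), and without any 1 of polyP replicates 1, 2, 3 and 5 or mutSOD1-ACM replicates 3, 4 and 5 (0.0628 to 0.133). Against control the 95% interval of the mutant medium included 0 for all 8.

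Ribosomal protein genes show the scale of differences that the test left uncalled. Against control all 49 tested cytosolic ribosomal protein genes had a positive difference with mutSOD1-ACM, and the median was 0.11 (set 1 alone 0.14, set 2 alone 0.05). limma called 0, and 1, Rps20, had an unadjusted p under 0.05 (576 ± 66.1 and 651 ± 45.8 FPKM, 0.18, limma adjusted p = 0.966). All 49 intervals lay within 0.5 on either side of 0. The median was 0.03 after quantile normalization and 0.07 with equal summed FPKM, so its size depended on the scaling. With polyP the list median relative to control was 0.40, and 47 of the 49 genes were called lower with mutSOD1-ACM than with polyP. In that comparison 1760 of all 11887 genes were called lower and 582 higher, a split that depended on the scaling. Rpl3, chosen after its values were seen, stood at 628 ± 22.8 FPKM in control, 655 ± 32.4 with mutSOD1-ACM and 813 ± 31.5 with polyP. Of 39 respiratory chain genes 37 had a positive difference (median 0.06, 0 called, 1 at an unadjusted p under 0.05).

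**Figure D4:**
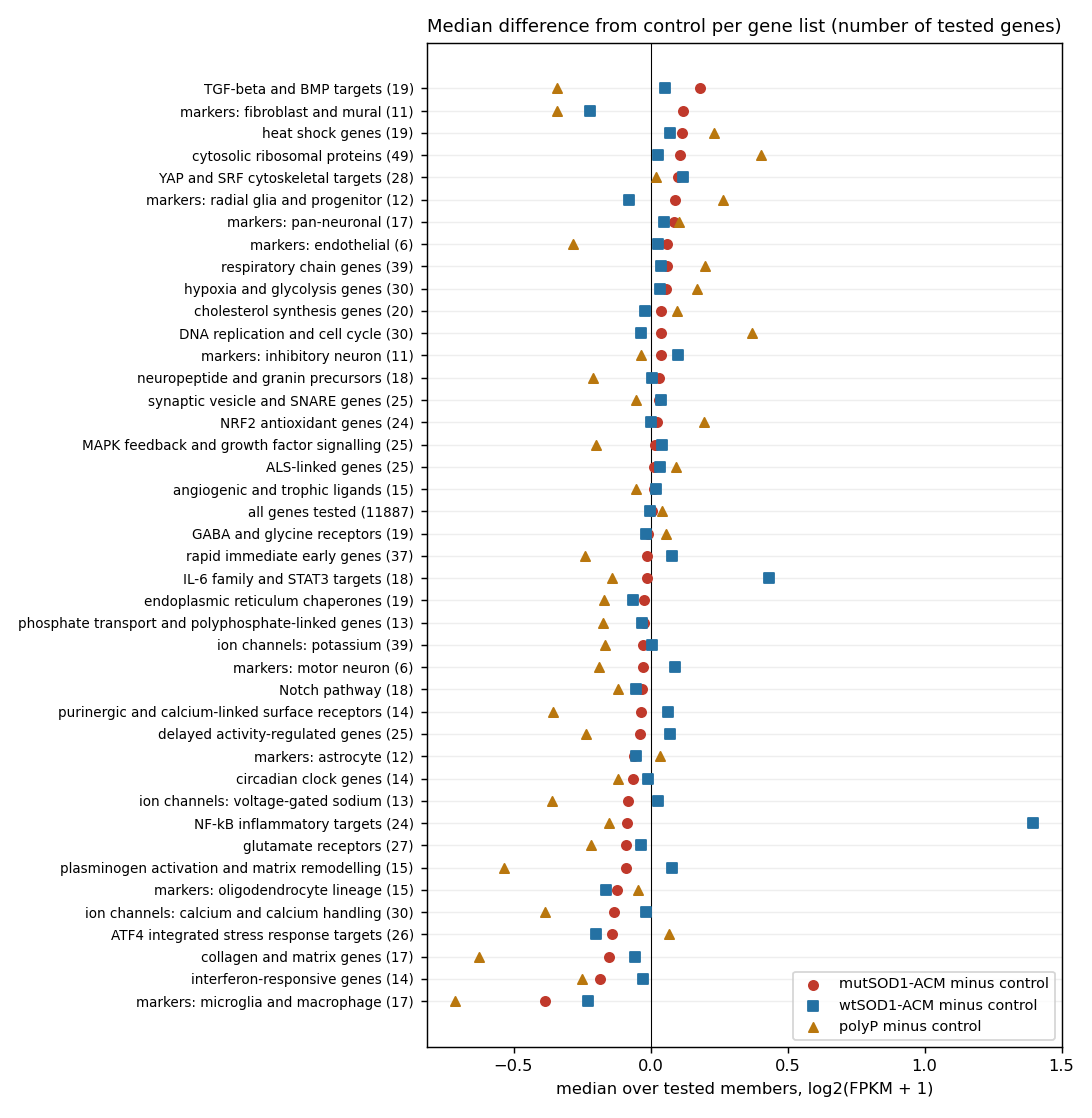
Median difference from control on the log2(FPKM + 1) scale (x axis) of 41 gene lists and of all genes tested (y axis, number of tested genes in brackets), with circles for mutSOD1-ACM, squares for wtSOD1-ACM and triangles for polyP. The 3 share their controls, so their positions are not independent. The mutSOD1-ACM medians lie between -0.39 (microglia markers) and 0.18 (TGF-beta and BMP targets), and the NF-kB targets stand at 1.40 with wtSOD1-ACM.

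Neuronal signalling genes were not called either. Of 27 glutamate receptor genes limma called 0, 1 had an unadjusted p under 0.05, 22 had a negative difference, and the median was -0.09. Gria2, an AMPA receptor subunit, stood at 39.8 ± 5.27 and 34.4 ± 5.77 FPKM (-0.21, 95% interval -0.46 to 0.0368), and Grin1, the obligate NMDA receptor subunit and chosen after its values were seen, at 55.4 ± 8.55 and 49.2 ± 9.34 FPKM. Of 30 calcium channel and calcium handling genes 27 had a negative difference, with a median of -0.13. The test called 0, and 3 were lower at an unadjusted p under 0.05, beside 125 of all 11887 genes. Atp2b1, a calcium pump of the plasma membrane, stood at 69.3, 82.9, 77.7, 80.0 and 65.9 FPKM in control and at 56.7, 54.7, 76.6, 67.6 and 66.7 FPKM with the medium (-0.22, limma adjusted p = 0.966). Its 2 lowest values came from mutSOD1-ACM replicates 1 and 2. Of 13 sodium channel genes limma called 0 (median -0.08, 1 at an unadjusted p under 0.05). It also called 0 of 39 potassium channel genes (-0.03) and 0 of 25 synaptic vesicle and SNARE genes (0.03), with 0 in both at an unadjusted p under 0.05. The sodium, glutamate and synaptic lists had medians of -0.18, -0.22 and -0.22 in the class of control replicate 1 with mutSOD1-ACM replicates 1 and 2. In the class of control replicates 2 and 3 with mutSOD1-ACM replicate 3 they were 0.04, 0.04 and 0.15. The sign thus differed between classes of 3 libraries each.

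Stress genes outside the ATF4 list were not called. Of 19 heat shock genes 18 had a positive difference (median 0.12, 0 called). At an unadjusted p under 0.05 stood 4, each higher, beside 301 higher and 125 lower of all 11887 genes. Hspb1, a small heat shock protein, stood at 15.9, 5.98, 8.08, 10.1 and 12.9 FPKM in control and at 17.4, 18.5, 12.9, 12.8 and 17.0 FPKM with the medium (0.58, 95% interval 0.176 to 0.982, limma adjusted p = 0.966), with control replicates 1 and 5 inside the treated range. Among 19 chaperones and related genes of the endoplasmic reticulum, Herpud1, which acts in the removal of misfolded proteins, stood at 47.9 ± 1.62 and 41.3 ± 2.23 FPKM without overlap (-0.21, limma adjusted p = 0.836). The level of Herpud1 with wtSOD1-ACM was 36.3 ± 3.21 FPKM. Of 24 NRF2 antioxidant genes limma called 0 (median 0.02, 1 at an unadjusted p under 0.05), and 21 of the intervals lay within 0.5 on either side of 0. Txnrd1, thioredoxin reductase, stood at 59.3 ± 1.74 and 63.1 ± 2.58 FPKM (0.09, adjusted p = 0.966).

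Rat Sod1, the gene whose human form the astrocytes carried, stood at 221, 169, 196, 195 and 240 FPKM in control and at 214, 227, 196, 235 and 242 FPKM with the medium. The groups overlapped, with means of 204 ± 26.9 and 223 ± 18.1 FPKM (0.13, 95% interval -0.0671 to 0.33, limma adjusted p = 0.966). Of 25 tested genes linked to amyotrophic lateral sclerosis limma called 0, with 0 at an unadjusted p under 0.05, a median of 0.01 and 23 intervals within 0.5 on either side of 0. Hnrnpa1, an RNA-binding protein, stood at 529 ± 36.5 and 564 ± 24.3 FPKM (0.09, -0.00932 to 0.196).

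Cell type markers set the limits of these comparisons. The 17 pan-neuronal markers summed to 1891 to 3189 FPKM in control and 2702 to 3158 FPKM with mutSOD1-ACM, with a median of 0.09. This median was -0.16 in the class of control replicate 1 with mutSOD1-ACM replicates 1 and 2. In the class of control replicates 2 and 3 with mutSOD1-ACM replicate 3 it was 0.23. The part of neuron content in the neuronal signalling values was not tested. For the marker lists of pan-neuronal genes, motor neurons, astrocytes, oligodendrocytes and microglia limma called 0 genes, and 0 had an unadjusted p under 0.05. For the 11 tested markers of inhibitory neurons limma called 0, and 1 had an unadjusted p under 0.05. Their median was -0.20 and 0.23 in those classes. The defining motor neuron markers were near the floor in all libraries: Chat, which makes acetylcholine, stood at 0.34 to 1.34 FPKM, Isl1 at 0.05 to 0.45 and Mnx1 at 0 to 0.14, and these were not tested. Of 12 motor neuron markers listed 6 could be tested, with a median of -0.03. Astrocyte markers summed to 637 to 927 FPKM in control and 634 to 771 FPKM with the medium. Gfap, the astrocyte filament protein, stood at 22.4 ± 8.64 and 20.4 ± 3.95 FPKM (-0.08, 95% interval -0.587 to 0.432).

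Microglia and oligodendrocyte markers differed widely between the culture sets. The 17 microglia and macrophage markers summed to 97.0 to 938 FPKM in control and 92.2 to 448 FPKM with mutSOD1-ACM, and their median difference was -0.39. Set 1 alone gave -0.64 and set 2 alone -0.04. The median was -0.16 with a term for the class, and 0.03 without control replicate 2. C1qa stood at 17.8, 87.9, 42.3, 5.27 and 5.97 FPKM in control and at 23.8, 21.2, 42.5, 5.19 and 4.94 FPKM with the medium, and control replicate 2 was the highest. Mbp stood at 171, 372, 348, 7.82 and 9.62 FPKM and at 169, 177, 332, 8.36 and 6.79 FPKM, and its difference of -0.30 had an interval from -3.63 to 3.03.

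Against wtSOD1-ACM the limma test called 56 genes (0.471%), 1 higher and 55 lower with the mutant medium. Of 24 tested NF-kB targets, genes of the inflammatory response, 19 were lower. The filter asks for an FPKM of 1 in 4 libraries, and wtSOD1-ACM has 4. Genes low elsewhere could thus enter through that group, and for these a lower level with mutSOD1-ACM was largely fixed by the filter. How many members entered this way was not counted. Against control the differences of the 24 members with the mutant medium ran from -0.24 to 0.69, and 15 of the 24 intervals lay within 0.5 on either side of 0. Ccl2, a monocyte attractant, stood at 2.82, 8.10, 5.12, 2.58 and 2.79 FPKM in control and at 3.13, 3.33, 7.32, 2.37 and 3.97 FPKM with mutSOD1-ACM (-0.04, 95% interval -0.647 to 0.562). With wtSOD1-ACM it stood at 134 ± 37.4 FPKM. Cxcl1 stood at 2.16 to 3.26 FPKM in control and at 1.75 to 3.55 FPKM with mutSOD1-ACM (-0.11, -0.418 to 0.198), and at 91.6 ± 21.5 FPKM with wtSOD1-ACM. For Icam1, an adhesion molecule, the difference from control was -0.24 (-0.557 to 0.0851), and for Nfkbiz, a nuclear IkB protein, -0.10 (-0.346 to 0.154). Of the 24 members limma called 0 against control, with 0 at an unadjusted p under 0.05 and a median of -0.09 beside 1.40 for wtSOD1-ACM. The highest of the 24 was Il1b, the cytokine interleukin-1 beta, chosen after its values were seen. It stood at 0.49, 3.50, 1.24, 0.38 and 0.31 FPKM in control and at 2.34, 2.30, 3.83, 1.31 and 1.45 FPKM with mutSOD1-ACM (0.69, 95% interval -0.349 to 1.74, limma adjusted p = 0.966). Control replicate 2 lay inside the treated range and the other 4 controls below it. In set 2 alone the Il1b difference of 0.82 passed the test (limma adjusted p = 0.0442). That test compared 2 controls, at 0.38 and 0.31 FPKM, with 2 treated libraries, so the control values were near the floor.

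Also lower than under the wild-type medium were the chemokines Ccl20 and Ccl7, the guanylate-binding protein Gbp5 and the apoptosis inhibitor Birc3. Against control their differences were -0.15, 0.06, -0.31 and -0.16, and none was called. Ccl7 stood at 0.36 to 0.58 FPKM in all controls but replicate 2. With mutSOD1-ACM Birc3 stood at 0.34 to 0.55 and Gbp5 at 0.83 to 1.16 FPKM in all libraries but replicate 3. Near this floor the log2(FPKM + 1) scale understates changes, so small differences from control say little. The limit of the filter given above holds for such genes too. Klf2, a transcription factor that restrains inflammatory genes, was the 1 gene higher than with the wild-type medium (0.67, limma adjusted p = 0.00886). Its control values of 9.11 to 14.8 FPKM overlapped those with mutSOD1-ACM, 11.9 to 15.9 FPKM (0.18, -0.0586 to 0.416), while wtSOD1-ACM gave 7.82 ± 0.778 FPKM. The call of Klf2 ended in set 1 alone (adjusted p = 0.126). Pgf, a placental growth factor chosen after its values were seen, was intermediate. It stood at 4.92, 3.38, 3.55, 3.47 and 3.31 FPKM in control, at 5.25, 5.40, 5.00, 5.61 and 5.46 FPKM with mutSOD1-ACM (0.43, adjusted p = 0.966) and at 13.9 ± 0.896 FPKM with wtSOD1-ACM (mutant minus wild type -1.23, adjusted p = 9.43e-06).

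**Figure D5:**
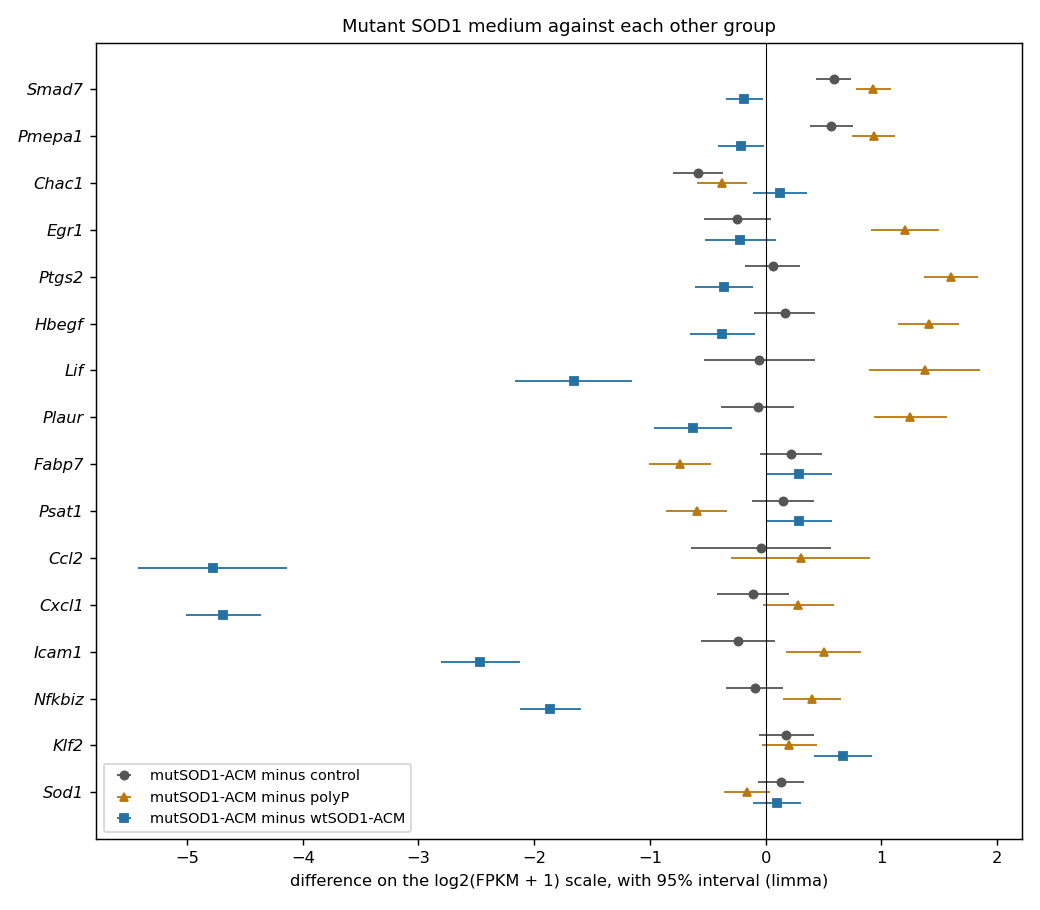
Difference of mutSOD1-ACM from control (circles), from polyP (triangles) and from wtSOD1-ACM (squares) on the log2(FPKM + 1) scale (x axis) for 16 genes, with 95% limma intervals. For Smad7 and Pmepa1 the intervals of circles and triangles lie wholly above 0, while for Egr1, Ptgs2, Hbegf and Lif only those of the triangles do.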

How the data were processed

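RNA of 19 rat spinal cord cultures was sequenced after poly(A) selection with TruSeq libraries, per the labels' protocols, and aligned with HISAT to rn6, per the submitters' processing notes. The authors deposited 1 table of FPKM values per gene. For the FPKM values, program and annotation were not given in the sources used here. No raw counts were used, so no count model was fitted, and low FPKM values, spaced in whole multiples of 1 fragment for 94.2% of 520 values within a tolerance of 0.1 fragment, gave relative depth only.

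Groups were taken from the labels, and 0 columns of the table were left out. Values were transformed to log2(FPKM + 1), which understates changes of low genes. One limma 3.58.1 model (R 4.3.3, statmod 1.5.0; empirical Bayes with trend and robust options, 15 residual degrees of freedom) was fitted over all 19 libraries with group as the only term, and p-values, all two-sided, were adjusted by Benjamini-Hochberg over 11887 genes. Folds of means are ratios of mean FPKM. The 41 gene lists (855 of 946 entries tested) are described without a set test, and members and lists were chosen with earlier results of these data known. Genes named were those called with the largest changes, of each list the called members or else the 2 with the smallest p, the 8 largest differences each way against polyP and wtSOD1-ACM, and 12 fixed genes. Other genes are said to be chosen after their values were seen. Same-numbered mutSOD1-ACM and polyP libraries deviated together (correlations of deviations from the group means 0.688, 0.763, 0.764, 0.71 and 0.744), so that pairing was used for the blocked count. Replicates 1 and 4 of mutSOD1-ACM correlated best with another number (2 and 5). The numbers come from the labels, which do not say what they share. Alternatives were other pseudocounts, filters and scalings, the 2 groups alone, plain empirical Bayes, the replicate block, terms for culture sets or classes, each set alone, and each library left out. Values of a few genes are not reported here.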

Additional observations from a re-analysis of the deposited data

Results flagged for a closer look

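In 8 of 144 gene and group combinations checked (72 genes in 2 groups) 1 library stood apart from the other 4, by a gap that a 5-sample Dixon test at 95% marks (chance marks about 1 in 20 groups, and 8 of 144 is near that share). Of the control libraries, replicate 2 had the high value of Icam1 (29.83 FPKM, the others 14.4 to 18.22) and of Ccl7 (1.68, the others 0.36 to 0.58). Control replicate 1 had the high value of Pgf (4.92 FPKM, the others 3.31 to 3.55) and the low value of Gria2 (30.59, the others 40.8 to 43.88). Control replicate 5 had the high value of Ier5l (35.45 FPKM, the others 28.35 to 29.78). Of the treated libraries, mutSOD1-ACM replicate 3 had the high values of Gbp5 (2.21 FPKM, the others 0.83 to 1.16) and Birc3 (1.26, the others 0.34 to 0.55). MutSOD1-ACM replicate 2 had the high value of Klf2 (15.85 FPKM, the others 11.89 to 13.03).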

How the results depend on the processing

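Against control Smad7 and Pmepa1 had positive differences in all 24 alternatives, and Smad7 was called in 21 and Pmepa1 in 10. The count of called genes was 1 without a filter, 1 with median-of-ratios scaling, 1 with equal summed FPKM, 0 with only the 2 groups fitted (207 genes at an unadjusted p under 0.05), 0 in set 1 alone (607), 5 in set 2 alone, 5 with the class term added after the data were seen, and 1 to 2 with a library left out. With the replicate block it was 3, all lower, and neither Smad7 nor Pmepa1 was among them (limma adjusted p = 0.0917 and 0.0602). Same-numbered control and mutSOD1-ACM libraries correlated between 0.0781 and 0.791, and not every library was closest to its own number.

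Against polyP the count was 1479 and 1533 with these scalings, 5787 with the replicate block, 4287 with the set term, 5413 with the class term, 116 in set 1, 4529 in set 2, and 1598 to 2381 with a library left out. Against wtSOD1-ACM it was 31 with the replicate block, where Gbp5 (limma adjusted p = 0.204) and Birc3 (0.201) lost their calls; the numbers do not pair these groups, and number 3 joins a library of set 1 with one of set 2 (correlation -0.725). It was 99 with the set term, 119 with the class term, and 40 to 54 with a library left out. The cause of these shifts was not tested. The ratio of summed FPKM was 1.017 to 1.036 with a library left out. Among the genes named, no called difference changed sign. Genes at a few FPKM have wide intervals, and absolute depth is unknown.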

Other observations

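Iars and Aars encode synthetases that charge transfer RNAs with amino acids. The other synthetase genes were not examined as a group. Iars, for isoleucine, stood at 42.0, 43.2, 47.4, 48.8 and 45.6 FPKM in control and at 37.6, 36.4, 38.8, 40.1 and 39.6 FPKM with mutSOD1-ACM. All treated libraries lay below all controls (-0.23, 95% interval -0.332 to -0.128, limma adjusted p = 0.301), by 0.23 within set 1 and by 0.24 within set 2 on the log2 scale. Aars, for alanine, stood at 115 ± 4.10 and 105 ± 3.74 FPKM (-0.12, adjusted p = 0.966), again without overlap. With wtSOD1-ACM Iars stood at 39.5 ± 1.76 and Aars at 104 ± 1.11 FPKM.

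A pair of transcription regulators outside the lists had higher values with the medium in all 5 libraries than in any control. Irf2bpl stood at 65.2 ± 3.96 and 76.8 ± 2.80 FPKM (0.23, limma adjusted p = 0.301) and at 61.9 ± 2.05 FPKM with polyP. Foxc2, a forkhead factor of mesenchyme, stood at 1.98 ± 0.225 and 3.10 ± 0.50 FPKM (0.45, adjusted p = 0.533) and passed with the class term (adjusted p = 0.0384). These 4 genes were chosen after their values were seen.

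Of 14 tested interferon-responsive genes 13 had a negative difference from control, with a median of -0.18 (limma called 0, 1 at an unadjusted p under 0.05). The median was -0.29 in set 1 and -0.09 in set 2. Within set 1 it was 0.04 in the class of control replicate 1 and -0.28 in the class of control replicates 2 and 3. Stat2, a transducer of interferon signals, stood at 8.34 ± 1.14 and 7.02 ± 0.788 FPKM (-0.22, adjusted p = 0.966). Among 30 genes of DNA replication and the cell cycle, limma called 0 against control (1 at an unadjusted p under 0.05) and 22 lower than with polyP. Of all 11887 genes, 1760 were called lower and 582 higher against polyP, a split that depended on the scaling. Cdc20, an activator of the anaphase-promoting complex, stood at 27.7 ± 1.36 in control, 29.9 ± 2.93 with mutSOD1-ACM and 40.2 ± 2.35 FPKM with polyP.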
